A study of Mus musculus with 9 samples.

Results

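All 6 arrays of mice given butyrate and 1,2-dimethylhydrazine (DMH) were set against the 3 arrays of mice given DMH alone, which together are all 9 arrays of the study. Membership followed the sample titles, and the butyrate arrays, titled as without tumors (3) or with tumors (3), formed 1 group of 6. Every sample was total RNA of colonic mucosa that the labels call normal, from ICR mice, an outbred stock. All mice received DMH, a carcinogen that causes colon tumors in rodents, under the skin at 20 mg/kg each week for 20 weeks. The DMH group had plain drinking water, and the butyrate groups drank water holding 1.5% butyrate. There was no group without DMH, so a difference here is one between butyrate with DMH and DMH alone. Age, sex and the time of day of tissue collection are not given in the sources used here. The labels do not say that the samples are separate animals, so p-values measure only the spread between these samples, which may be technical. A label field for tumor status gives the reverse of the titles, descriptions and source names for all 6 butyrate samples. Because both butyrate groups were pooled, the comparison of all butyrate arrays with DMH does not depend on which is right, but the names of the butyrate groups below do.

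Butyrate is a short-chain fatty acid made by bacteria that ferment fibre in the colon. Colonocytes, the absorptive cells of the colon surface, take it up and burn it as fuel, and it inhibits histone deacetylases, enzymes that remove acetyl groups from histones. The colonic mucosa is a sheet of colonocytes, mucus-secreting goblet cells and hormone cells over a stroma of fibroblasts, vessels and immune cells, bounded by a thin muscle layer, with the nerve plexuses and the thick muscle coat beneath.

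Each array reported 41174 probes with 1 dye. A level is the log2 of a probe's background-subtracted signal relative to the 75th percentile of its array, so 0 is the brightness of that percentile and each unit is a doubling. Levels of different probes are not comparable. The 75th percentile itself lay between 188 and 880 signal units in the butyrate arrays and between 740 and 822 in the DMH arrays, and the share of spots well above background ran from 57.8% to 72.5%. The butyrate arrays differed by slide here, with 188 to 444 on slide 1 against 832 and 880 on slide 2. The first principal component (46.9% of the variance) likewise put the 4 arrays of slide 1 between -99.2 and -54.1 and those of slide 2 at 38.1 and 44.6, near the DMH arrays at 57.3 to 69.2. A feature, one probe per gene or a probe without a gene name, was tested when its probe was well above background on at least 3 arrays, which gave 21964 features, 15346 of them named. Per feature, the median SD was 0.12 on the log2 scale among DMH arrays and 0.46 over the 6 butyrate arrays. Slide 1 carried all arrays without tumors plus array 1 with tumors, slide 2 the other two with tumors, and slides 3 and 4 the DMH arrays, which were scanned on another day. Slide, scan day and treatment therefore cannot be told apart. Between the butyrate groups, slide and tumor status overlap in all arrays but array 1 with tumors. A difference between the butyrate groups is thus in large part also one between slides. Array 1 with tumors stood apart by its lymphocyte genes. The median of 27 T and natural killer cell genes lay 2.98 above the DMH mean there, and that of 20 B and plasma cell genes lay 2.43 above it, against at most 1.19 and 0.54 in the other butyrate arrays. Cd79b, part of the B cell receptor, stood at 5.47 and Pou2af1, a B cell coactivator, at 5.40 in that array, against at most 3.78 and 3.27 in the others.

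Of the 21964 features, 2020 (9.2%) differed between butyrate and DMH at an adjusted p under 0.05 (limma's moderated test, 2-sided, Benjamini-Hochberg), 1285 of them higher (5.85% of features) and 735 lower (3.35%) with butyrate. Named genes made up 1230 of the calls, 683 higher and 547 lower. In all 2020 the mean without tumors and the mean with tumors lay on the same side of DMH, and 1002 differed by a log2 of 1 or more in each butyrate group, 669 higher and 333 lower. The 6 butyrate arrays lay wholly on 1 side of the 3 DMH arrays for 1964 of the calls and for 26.1% of all features. The median change over all features was 0.08. Among the third of features with the lowest mean level, 540 were higher and 176 lower, and among the third with the highest level 227 were higher and 296 lower. Of the 2020 calls, 178 (8.81%) also differed between the butyrate groups, against 13.5% of all features. The pooled test counts a difference between the butyrate groups as spread, so features that differ between them are less readily called. The lower share among calls is therefore no test of a shared effect. The count of all features that differed between the butyrate groups moved from 2976 to 1069, 1071 and 1287 without arrays 1, 2 and 3 without tumors. It moved to 7774 and 177 without arrays 1 and 3 with tumors, and to 1793, 1008 and 1033 without DMH arrays 1, 2 and 3.

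The count for butyrate against DMH rested on single arrays. Without DMH array 1, 2 or 3 it fell to 210, 7 and 8. Without array 1, 2 or 3 of the mice without tumors it was 1289, 263 and 709, and without array 1, 2 or 3 with tumors it was 1631, 2858 and 3626. Without the second slide's butyrate arrays it was 7403. With slide as a random block, at a correlation within slides of 0.33, only 17 features passed, and 4247 had an unadjusted p under 0.05. The 7 named genes among them were Mitf, Ang4, Nat3, Orm2 and Pinx1 (lower) and Olfr380 and Pcare (higher). Mitf and Ang4 were the named genes that passed whichever array was left out, and every other called gene named below lost its call without DMH array 2. Of the 1272 tested genes in 52 gene lists, such as goblet cell or clock genes, 127 were called, 44 higher and 83 lower. No list kept more than 2 calls without DMH array 1 or more than 1 without DMH array 2 or 3, where the call left was that of Ang4. Without array 2 of the mice without tumors 11 of the 52 lists held a call, none with more than 3. The share of higher calls moved with the processing. Higher calls were 63.6% of the total and 60.4% with quantile scaling, but 49.3% after normexp background correction and 39.2% with the authors' own values (17085 features). Without scaling between arrays the median of all features moved by -0.85 and the 35 features called were all lower with butyrate.

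**Figure D1:**
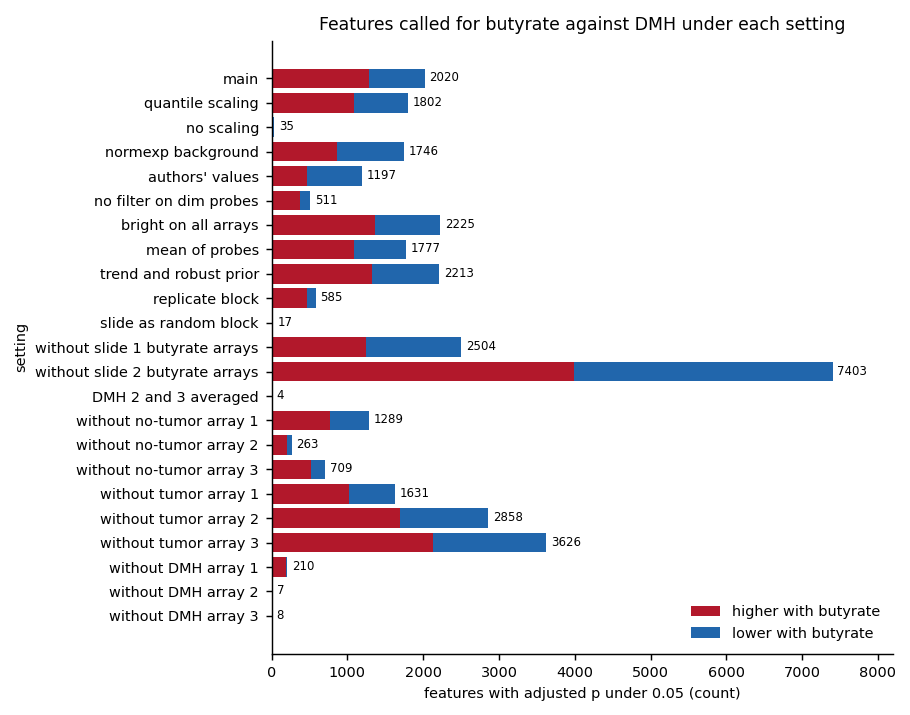
Features with an adjusted p under 0.05 for butyrate against DMH under each setting, as stacked bars of features higher (red) and lower (blue) with butyrate, the total printed at each bar's end. The main setting gave 2020, leaving out DMH array 2 or 3 gave 7 and 8, and leaving out the butyrate arrays of slide 2 gave 7403.

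The genes that shifted furthest in both butyrate groups were ranked by the smaller of their 2 differences from DMH (without tumors minus DMH, with tumors minus DMH), and the first 15 in each direction are described here. Both differences use the same 3 DMH arrays. The smaller difference was 2.27 or more on the log2 scale as measured for the 15 higher genes and 2.54 or more for the 15 lower genes. Each of the 30 was measured by 1 probe that passed the filter, apart from Pinx1 with 2 probes. Of the higher genes, 10 were not well above background on any DMH array, and 7 of the lower genes on no butyrate array, so the rank and the measured difference of these 17 rest on signal that was not well above background. For them the fold is given as a lower bound against the dimmest signal that counts as well above background, and it can be far smaller. Dlg4, Sphkap, Brinp3, Zfp583 and Olfr380 were well above background on 5 of 6 butyrate arrays and Scn7a on 4. Their butyrate mean thus holds dim signal too, and their bound is not strict.

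Ccdc182, a coiled-coil protein gene, ran from -4.52 to -3.10 in the butyrate arrays (median -3.84) and stood at -6.20, -7.10 and -7.72 in the DMH arrays. It was at least 3.04-fold higher with butyrate (log2 change 3.18 ± 0.36 SE, adjusted p = 0.0079), with 2.93 without tumors and 3.44 with tumors. Klhl4, a kelch-like protein gene, ran from -4.66 to -3.56 (median -4.05) against -7.52, -6.13 and -6.42 in DMH, at least 2.55-fold higher (2.62 ± 0.34, adjusted p = 0.0144). For both genes the lowest butyrate array lay more than 1 unit above the highest DMH array. Ngb, neuroglobin, an oxygen-binding globin of neurons, was well above background on all 9 arrays. It ran from -1.21 to -0.42 with butyrate and stood at -2.09, -3.89 and -3.91 in DMH, a change of 2.45 ± 0.40 (adjusted p = 0.0195) that was 2.49 without tumors and 2.42 with tumors.

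Genes of nerve cells in this group were Dlg4, a scaffold of the postsynaptic membrane (at least 2.66-fold higher), Scn7a, a sodium channel of glia and nerves (at least 1.87-fold), Brinp3 (at least 1.57-fold) and Slc5a7, the choline transporter of cholinergic neurons (log2 change 2.69). The first 3 were not well above background on any DMH array, and Slc5a7 was on 1. Rspo2, a secreted R-spondin that amplifies Wnt signals to stem cells, ran from -5.66 to -2.64 with butyrate against -6.94, -6.93 and -6.59 in DMH, at least 2.56-fold higher (2.76 ± 0.60, adjusted p = 0.0317). Adh4, an alcohol dehydrogenase that oxidises retinol, rose by 3.00 ± 0.61 (adjusted p = 0.0288) and was well above background on 1 DMH array. Zfp979 (log2 change 2.90) and Clvs2 (2.65) were well above background on all 9 arrays. Zfp583, Sphkap, Olfr380 and Lrch2, not well above background on any DMH array, were at least 1.59-fold, 1.75-fold, 1.49-fold and 3.28-fold higher and completed the 15. Olfr380 belongs to the large olfactory receptor family, whose members have near copies, so its probe may read more than 1 of them. None of the 15 differed between the butyrate groups at an adjusted p under 0.05. The pooled test and the ranking both select against such a difference, so its absence is no test of a shared effect. The groups lay closest in Adh4, Clvs2 and Zfp979, where the lowest butyrate level was -4.58, -3.58 and -3.23 and the highest DMH level -4.81, -3.83 and -3.53.

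Mitf ranked first among the lower genes by measured difference, although its butyrate level is only a bound, and Srrm3 ranked first among those well above background on all 9 arrays. Mitf, a transcription factor of melanocytes and mast cells, stood at -2.15, -1.62 and -1.76 in the DMH arrays and ran from -7.89 to -6.54 with butyrate (median -7.51), where it was not well above background on any array. It was at least 10.9-fold lower (log2 change -5.57 ± 0.29, adjusted p = 0.000122), with -5.79 without tumors and -5.35 with tumors. Ang4, an antimicrobial ribonuclease secreted by goblet and Paneth cells, was bright on all 9 arrays. It stood at 4.25, 4.15 and 4.30 in DMH and at 1.08, 0.85, 0.73, 1.68, 0.88 and 1.18 in the butyrate arrays, a change of -3.17 ± 0.22 (adjusted p = 0.000926), or 8.98-fold. Every butyrate level of Ang4 lay more than 2 units below every DMH level. Its paralog Ang2 had a change of -4.90 ± 1.06 (adjusted p = 0.0317) and spread widely, from -6.53 to -1.22 with butyrate against 0.26, 1.55 and 1.70. Cross-reading between such near copies on an array was not tested.

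Srrm3, a splicing factor of neuronal microexons, fell from 1.89, 2.25 and 1.92 to between -5.46 and -1.83 (-5.67 ± 0.77, adjusted p = 0.0154). Stra6, the membrane receptor that takes up retinol, fell from 1.51, 1.81 and 1.63 to between -3.66 and -0.41 (-4.03 ± 0.72, adjusted p = 0.0238). Pinx1, a telomerase inhibitor, fell from 4.77, 4.96 and 4.61 to between 0.64 and 2.17 (-3.49 ± 0.38, adjusted p = 0.00699), while a second, dimmer probe of it had -0.88 (adjusted p = 0.334). In these 3 genes and in Ang2 the arrays without tumors were lower than those with tumors (adjusted p = 0.0188 for Srrm3, 0.0187 for Stra6, 0.0147 for Pinx1 and 0.0438 for Ang2), so that the fall was common in direction but not in size. Cacna1f, a calcium channel subunit of the retina, Kcnq3, a potassium channel subunit of neurons, Hormad1, a protein of meiotic chromosomes, Nat3, an acetyltransferase, Orm2, an acute-phase plasma protein, and Zfp605 were not well above background on any butyrate array. They were at least 5.85-fold, 2.39-fold, 3.91-fold, 2.09-fold, 2.62-fold and 2.87-fold lower. Nat3 and Orm2 have near copies in the genome. Itln1, a lectin that goblet cells secrete, stood at 4.98, 4.88 and 4.97 in DMH and ran from 0.04 to 3.28 with butyrate (-2.94 ± 0.62, adjusted p = 0.0302). Mmp13 and Mmp10, secreted proteases of matrix, completed the 15 and are given with their family below.

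**Figure D2:**
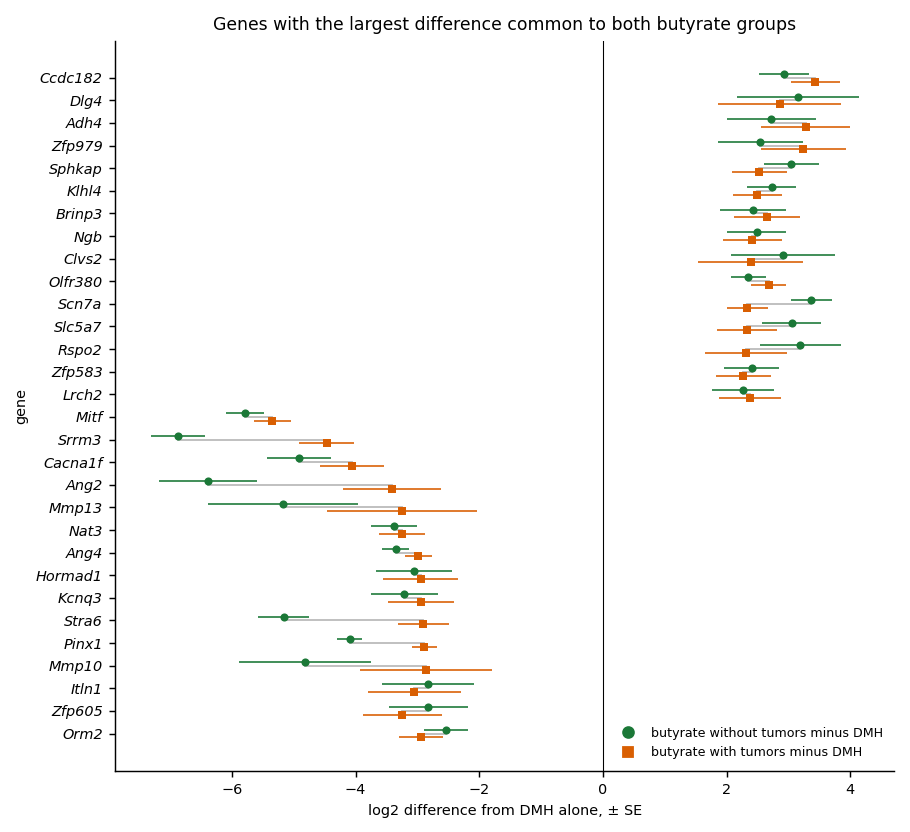
Log2 difference from DMH alone, with its SE, for butyrate without tumors (green circles) and with tumors (orange squares), for the 15 higher and 15 lower genes with the largest difference common to both groups. Ccdc182 lies at 2.93 and 3.44 and Mitf at -5.79 and -5.35, and for Srrm3, Ang2, Stra6 and Pinx1 the group without tumors lies further from 0. In 17 of the 30 genes, Ccdc182 and Mitf among them, 1 side was not well above background, and the plotted difference is no bound.

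The labelled tissue was checked against markers of colon epithelium, and those markers were bright in every array. Of 14 markers, 6 were lower with butyrate and 0 higher (42.9% lower against 3.35% of all features), with a median change of -0.82 against 0.08 over all features. The list median lay between -1.01 and -0.53 of the DMH mean in the 6 butyrate arrays and between -0.05 and 0.07 in the DMH arrays. Summed on the linear scale, the markers came to between 703 and 1093 in butyrate arrays and between 1622 and 1850 in DMH arrays, in multiples of the 75th percentile. The sums of array 1 of each butyrate group lack Krt8, a bright marker, so they are not sums of the same genes. Epcam, the adhesion molecule of epithelial cells, stood at 6.27, 6.30 and 6.26 in DMH and at 5.23, 5.15, 5.44, 4.85, 5.96 and 5.67 with butyrate (-0.89 ± 0.24, adjusted p = 0.0487). Krt18 (-0.97 ± 0.23, adjusted p = 0.0371) and Krt19 (-0.72 ± 0.17, adjusted p = 0.0359), keratins of simple epithelium, fell as well, and no butyrate array reached a DMH level for these 3 genes. Tff3 fell by 2.12 ± 0.43 on the log2 scale, Lgals4, a galectin of the gut lining, had -1.26 and Cdx2, the transcription factor that sets intestinal identity, -1.13. Krt8 had -0.76 (adjusted p = 0.0616), fitted without array 1 of each butyrate group, where its spot was marked as an outlier, and a second bright probe passed with -0.77 ± 0.17 (adjusted p = 0.0358). Krt20, a keratin of mature surface cells, had -0.63 (adjusted p = 0.061). Not all markers fell, as Vil1 had 0.01 (adjusted p = 0.984) and Slc26a3, given below, 0.88. Cdh17 had -0.25, Cdh1 -0.73 and Cdx1 -1.05 (adjusted p = 0.506, 0.285 and 0.115). Car1, a carbonic anhydrase of colonocytes, had -0.90 (adjusted p = 0.372) and lay at 0.10 without tumors and at -1.90 with tumors. Without array 2 or 3 of the mice without tumors no marker of this list was called. In bulk RNA, fewer cells of a type and less RNA per cell cannot be told apart.

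Products of goblet cells were lower in both butyrate groups. Of 18 goblet and mucus genes tested 7 fell and 0 rose (38.9% lower against 3.35% of all features), with a median change of -1.38, -1.13 without tumors and -1.78 with tumors. Besides Ang4 and Tff3 these were Spink4, a secreted peptide, Fcgbp and Clca1, abundant proteins of the mucus gel, Agr2, which folds mucin in the endoplasmic reticulum, and Spdef, the transcription factor of goblet maturation. Tff3, the trefoil peptide of mucus, stood at 7.90, 7.80 and 7.83 in DMH and at 4.98, 5.79, 5.65, 4.83, 7.02 and 6.11 with butyrate (adjusted p = 0.0286). Spink4 stood at 7.50, 7.36 and 7.40 against a range of 4.68 to 6.79 (-2.03 ± 0.40, adjusted p = 0.0276), and Fcgbp at 7.75, 7.61 and 7.73 against 4.42 to 6.60 (-2.06 ± 0.45, adjusted p = 0.0317). A second bright probe of Fcgbp had -1.61 and did not pass. Array 2 with tumors held the highest butyrate level of all 3 genes. Clca1 had -1.59, Agr2 -1.47 and Spdef -1.86. Muc2, the gel-forming mucin itself, stood at 7.78, 7.54 and 7.62 in DMH and ran from 4.25 to 6.70 with butyrate (median 6.25) without reaching the threshold (-1.83 ± 0.51, adjusted p = 0.0523). Zg16, a lectin of the mucus, had -1.29 (adjusted p = 0.0676) and Klk1, a kallikrein, -1.04 (adjusted p = 0.244). In 12 of the 18 genes all butyrate arrays lay below all DMH arrays, where 26.1% of all features had no overlap in 1 direction or the other. Without arrays 2 and 3 of the mice without tumors in turn, 1 and 4 goblet genes were called, and after normexp 3 goblet genes and 1 of the epithelial markers.

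Transporters and enzymes of the absorptive surface were mostly uncalled. Of 31 genes of the colonocyte surface, 2 fell (6.45% against 3.35%), the membrane mucins Muc4 (-1.05 ± 0.26, adjusted p = 0.0419) and Muc13 (-1.11 ± 0.30, adjusted p = 0.0499), and the list's median change was -0.25, with -0.06 without tumors and -0.62 with tumors. Without the butyrate arrays of slide 1, 11 of the list were lower. Slc26a3, the chloride and bicarbonate exchanger of colonocytes, was measured above DMH in all 6 butyrate arrays, from 2.82 to 4.24 against 2.64, 2.78 and 2.64, with 0.88 ± 0.28 (adjusted p = 0.0724). Aqp8, a water channel of the surface, had 0.72 (adjusted p = 0.151). Among 22 hormone cell genes Tac1, the substance P precursor, which enteric neurons also make, rose by 0.99 ± 0.24 (adjusted p = 0.0403) and Pcsk1, a hormone-processing protease, fell by 1.36 ± 0.34 (adjusted p = 0.0407). Each was 4.55% of the list, where 5.85% of all features were higher and 3.35% lower. Array 3 without tumors held the lowest butyrate level of Tac1, 0.34, and array 1 without tumors the highest of Pcsk1, 0.22, level with DMH array 2. Of the surface list 0 genes fell without array 2 and 1 without array 3 of the mice without tumors, and 4 without array 1 or 3 with tumors.

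**Figure D3:**
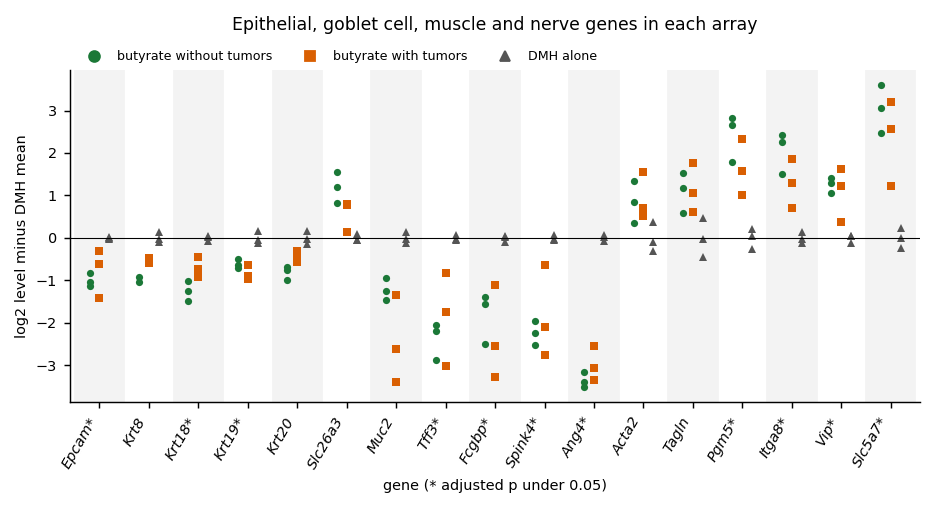
Log2 level of each array minus the DMH mean for 11 epithelial and goblet cell genes, from Epcam to Ang4, and 6 muscle and nerve genes, from Acta2 to Slc5a7. Circles are butyrate without tumors, squares butyrate with tumors and triangles DMH alone, and the butyrate points of Ang4 all lie below every DMH point while those of Slc5a7 all lie above.

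Part of the muscle and nerve genes rose with butyrate. Of 26 smooth muscle genes 4 rose and 0 fell (15.4% higher against 5.85% of all features), with a median change of 0.97, 1.00 without tumors and 0.96 with tumors. Pgm5, a protein of muscle adhesion sites, stood at 1.35, 1.17 and 0.86 in DMH and at 3.78, 3.94, 2.91, 3.46, 2.69 and 2.13 with butyrate (2.02 ± 0.39, adjusted p = 0.0268). Its 2 dimmer probes had 1.53 (adjusted p = 0.0327) and 0.85 (adjusted p = 0.0603). Itga8, an integrin of smooth muscle, rose by 1.68 ± 0.35 (adjusted p = 0.0303), Lmod1, an actin nucleator of smooth muscle, by 1.26 ± 0.31 (adjusted p = 0.0407) and Synm, an intermediate filament protein, by 1.46 ± 0.38 (adjusted p = 0.0452). The brightest probes of the contractile genes Acta2 (0.89, adjusted p = 0.0825), Tagln (1.11, adjusted p = 0.0552) and Cnn1 (1.06, adjusted p = 0.0564) did not pass, and a dimmer probe of Acta2 did (1.38, adjusted p = 0.0399). The summed level of the list ran from 554 to 1253 in butyrate arrays and from 361 to 606 in DMH arrays, so that the groups overlapped. DMH array 1, at 0.36 of the DMH mean, lay above array 3 without tumors, at 0.28. Without arrays 1, 2 and 3 of the mice without tumors 2, 0 and 7 genes of the list were called, and without arrays 1 and 3 with tumors 2 and 9.

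Enteric neurons and glia form the nerve plexuses of the gut wall. Of 31 of their genes 7 rose and 1 fell, with a median change of 0.93, and of 36 genes of synapses and ion channels 8 rose and 0 fell, with a median of 0.79. The shares higher were 22.6% and 22.2%, against 5.85% of all features. Slc5a7 stood at -5.78, -5.55 and -5.33 in DMH and ran from -4.33 to -1.95 with butyrate (2.69 ± 0.45, adjusted p = 0.0206). Vip, the neuropeptide that relaxes gut muscle, stood at -0.48, -0.31 and -0.31 in DMH and at 0.70, 0.93, 1.04, 1.25, 0.01 and 0.85 with butyrate (1.16 ± 0.26, adjusted p = 0.0324). Ret, a receptor that precursors of enteric neurons need, and Nefl, a neurofilament, had 1.34 and 1.46, and Npy, a neuropeptide, had -1.33. Of the bright members that did not pass, Ncam1 had 1.26 (adjusted p = 0.0526), Tubb3 1.52 (adjusted p = 0.0651) and Elavl4 1.07 (adjusted p = 0.0914). Dimmer probes of Ncam1 ran from -0.58 to 0.94, and a dim probe of Elavl4 had -0.18. Array 2 with tumors had the lowest median of the nerve list, 0.07, below that of DMH array 1, 0.21. Gria1, a glutamate receptor subunit, was at least 2.98-fold higher. Syn2, a synaptic vesicle protein, and Gria3 rose by 1.60 ± 0.34 and 1.09 ± 0.24 (adjusted p = 0.0304 and 0.0341). The bright synapse members Vamp2, of vesicle release, and Kcnj8, a potassium channel, had -0.18 and 0.25 and did not pass. Without arrays 1, 2 and 3 of the mice without tumors 4, 1 and 2 nerve genes and 5, 1 and 3 synapse genes were higher, and without array 2 with tumors 12 nerve genes.

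Stromal lists did not move as the muscle list did. Of 35 genes of fibroblasts and matrix 0 were called in either direction (median change 0.00), as were 0 of 20 endothelial genes (0.08) and 0 of 15 fat cell genes (-0.56). Over all features 9.2% were called. The fat cell median was 0.92 in array 1 without tumors but lay between -1.68 and -0.82 in the other butyrate arrays. Without that array 5 fat cell genes were lower, and without the butyrate arrays of slide 1 there were 9. The part that the amount of muscle and nerve tissue in a sample plays in the lower epithelial levels was not tested, and the summed levels given above do not measure it.

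**Figure D4:**
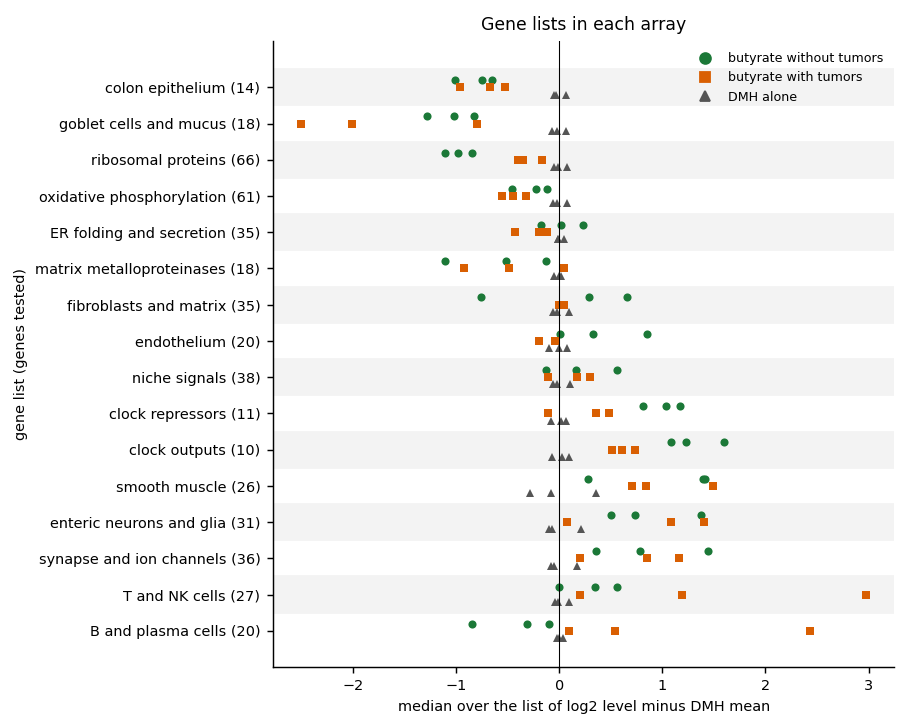
Median over each gene list of the log2 level minus the DMH mean, one point per array, for 16 lists with the number of genes tested in brackets. The epithelial and goblet lists lie below 0 in all 6 butyrate arrays and the clock output list above 0, while the muscle and nerve lists overlap the DMH arrays and the T and NK cell median of 2.98 belongs to array 1 with tumors.

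Some signals of the stem cell niche rose with butyrate. Of 38 such genes 5 rose and 1 fell (13.2% higher against 5.85% of all features), with a median change of 0.26. Sfrp5, a secreted inhibitor of Wnt, stood at -3.10, -3.39 and -3.49 in DMH and at -1.54, -2.03, -1.99, -1.76, -2.05 and -1.75 with butyrate, a change of 1.47 ± 0.18 (adjusted p = 0.0116) that was 1.47 in each butyrate group. The lowest butyrate array lay 1 unit above the highest DMH array, and the 6 butyrate levels spanned little more than the 3 DMH levels. Chrdl1, a BMP antagonist, rose by 1.54 ± 0.32 (adjusted p = 0.0288), Sfrp2, another Wnt inhibitor, by 1.09 ± 0.24 (adjusted p = 0.0317), and Rspo2 as given above. Gli3, a transcription factor of hedgehog signals, had 1.07, and Id3, a target of BMP signals, had -0.68. Of 23 Notch genes Heyl, a target, rose by 1.16 ± 0.27, Maml1, a coactivator, rose by 0.83 ± 0.21 and Dll4, a ligand, fell by 1.22 ± 0.30 (adjusted p = 0.0351, 0.0415 and 0.0415). A dimmer probe of Heyl had 0.49 and did not pass. The Notch calls were 8.70% of the list higher and 4.35% lower, against 5.85% and 3.35% of all features. In the crypt base, Ephb2, a receptor that positions crypt cells, fell by 1.27 ± 0.33 (adjusted p = 0.0464) as 1 of 21 genes (4.76% lower). Lgr5, the stem cell receptor for R-spondins, had -1.12 ± 0.49 (adjusted p = 0.155), with -2.31 and 0.12 as its lowest and highest butyrate levels around -0.24, -0.17 and -0.13 in DMH. Without array 2 of the mice without tumors 2 niche genes and 0 Notch genes were higher, and without array 3 with tumors 4 niche genes were lower.

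Clock genes are the molecular loop that keeps daily time in most cells. BMAL1 (Arntl) pairs with CLOCK or its relative NPAS2 to switch on genes through E-boxes. The products of the period and cryptochrome genes and of Ciart repress that pair, REV-ERB proteins (Nr1d1, Nr1d2) repress Arntl, and the factors DBP, TEF and HLF carry the rhythm to other genes through D-boxes, which NFIL3 blocks. With butyrate, the activators Arntl and Npas2 were lower and the outputs Dbp, Tef and Hlf and the repressor Nr1d2 were higher, in all 6 arrays each. The windows below are the 250 bases before the start of 4 genes, from RefSeq on GRCm38.p6, shown to let the motifs be seen beside the levels of Dbp and Tef, which passed the test, and of Ciart and Per3, which did not. Capitals mark the E-box CACGTG (Tef and Ciart) and the D-box TTANGTAA (Per3), searched on both strands, along with the REV-ERB and ROR motif TAGGTCA, which overlaps neither. The windows lie at chr7:45704997-45705246 on the plus strand (Dbp), chr15:81802423-81802672 on the plus strand (Tef, first start), chr3:95882229-95882478 on the minus strand (Ciart) and chr4:151044666-151044915 on the minus strand (Per3).
Dbp: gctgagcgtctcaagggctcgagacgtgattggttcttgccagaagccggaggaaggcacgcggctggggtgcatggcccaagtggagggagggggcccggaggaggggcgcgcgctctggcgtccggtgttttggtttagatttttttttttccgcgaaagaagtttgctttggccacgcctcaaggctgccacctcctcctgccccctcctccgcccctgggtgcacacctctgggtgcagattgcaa
Tef: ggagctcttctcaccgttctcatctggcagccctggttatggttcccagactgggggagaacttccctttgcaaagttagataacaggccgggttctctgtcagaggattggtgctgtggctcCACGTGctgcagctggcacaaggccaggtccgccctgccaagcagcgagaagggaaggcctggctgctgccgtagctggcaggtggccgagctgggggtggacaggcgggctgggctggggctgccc
Ciart: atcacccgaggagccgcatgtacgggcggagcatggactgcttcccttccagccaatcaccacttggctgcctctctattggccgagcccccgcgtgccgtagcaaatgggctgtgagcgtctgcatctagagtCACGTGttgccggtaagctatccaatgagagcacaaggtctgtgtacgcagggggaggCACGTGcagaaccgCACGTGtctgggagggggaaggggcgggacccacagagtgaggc
Per3: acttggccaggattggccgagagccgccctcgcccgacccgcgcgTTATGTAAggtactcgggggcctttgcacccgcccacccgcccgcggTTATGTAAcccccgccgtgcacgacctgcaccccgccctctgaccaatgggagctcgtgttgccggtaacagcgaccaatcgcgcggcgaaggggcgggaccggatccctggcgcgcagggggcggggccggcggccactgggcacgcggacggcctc

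Dbp held none of the 3 motifs in this window. Tef held 1 E-box at 127 bases before its first start and 1 at 138 bases before its second, Ciart held 3 E-boxes at 116, 58 and 44 bases, and Per3 held 2 D-boxes at 205 and 158 bases. Per1 held an E-box 166 bases before its first start, Cry1 one at 60 bases, and Nfil3 the motif TAGGTCA at 12 bases. The windows of Hlf, Nr1d2, Nr1d1, Arntl, Npas2, Clock and Cry2 held no match. Over all 32851 windows of this length, 6.02% held an E-box, 2.06% a D-box and 2.23% the motif TAGGTCA. A match is only a run of letters, and no binding was measured here.

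Among the activators, Npas2 stood at -0.95, -1.04 and -0.91 in DMH and at -2.22, -2.11, -1.93, -2.77, -2.16 and -2.60 with butyrate (-1.33 ± 0.21, adjusted p = 0.0195). Arntl stood at 0.34, 0.18 and 0.29 in DMH and at -1.30, -0.82, -0.21, -0.63, -0.86 and -0.97 with butyrate (-1.07 ± 0.23, adjusted p = 0.0314), with -1.05 without tumors and -1.09 with tumors. These were 2 of 5 activators and nuclear receptors tested, and Clock had -0.42 ± 0.30 (adjusted p = 0.37). Neither called gene overlapped with DMH in any array.

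Of 10 output genes Dbp, Tef and Hlf rose and 0 fell. Dbp stood at 2.84, 2.55 and 2.21 in DMH and at 4.61, 5.18, 4.31, 4.62, 4.05 and 3.91 with butyrate (1.92 ± 0.29, adjusted p = 0.017). Tef stood at 0.81, 0.95 and 0.49 against 3.44, 3.30, 3.16, 2.82, 2.25 and 2.11 (2.10 ± 0.32, adjusted p = 0.0192), and a dimmer probe had 1.47. Hlf stood at -3.16, -3.48 and -3.92 against -0.59, -0.65, -1.88, -1.03, -1.99 and -1.84 (2.19 ± 0.38, adjusted p = 0.023). All 3 separated the groups by 1 unit or more. Tef was higher without tumors than with tumors (2.55 against 1.64 above DMH, adjusted p of the difference 0.0382), while for Dbp (2.17 and 1.66) and Hlf (2.48 and 1.90) the difference did not pass. Nfil3, which opposes them, had -0.62 ± 0.33 (adjusted p = 0.236), and its arrays overlapped with DMH, while a second probe, about as bright, had -1.47 ± 0.27 (adjusted p = 0.026), so the probes disagree. Each output kept its call without any 1 butyrate array.

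Of 11 repressors 1 passed (9.09% higher against 5.85% of all features). Nr1d2 stood at 0.42, 0.51 and 0.40 in DMH and at 2.29, 2.42, 2.02, 1.29, 1.72 and 1.38 with butyrate (1.41 ± 0.27, adjusted p = 0.0272), and it too was higher without tumors (adjusted p = 0.0296). Per1 had 0.83 ± 0.23 (adjusted p = 0.0527), Per2 1.02 ± 0.43 (adjusted p = 0.14), Per3 1.50 ± 0.49 (adjusted p = 0.0788) and Cry2 0.87 ± 0.29 (adjusted p = 0.0795). A dimmer second probe of Per2 had -0.29 (adjusted p = 0.691). Per1 and Cry2 lay above DMH in all 6 butyrate arrays, and array 1 with tumors fell below all DMH arrays for Per2 and Per3. Ciart had the largest value, 2.72 ± 0.79 (adjusted p = 0.0595), with DMH levels as far apart as -6.99, -3.68 and -4.63 and butyrate levels from -3.69 to -1.06. Cry1 had -0.16 (adjusted p = 0.752) and Nr1d1, the other REV-ERB gene, -0.23 (adjusted p = 0.616). The median of the list was 0.83. Without array 1, 2 or 3 with tumors 4, 2 and 2 of the 11 were higher, and without array 2 of the mice without tumors 0, where Npas2 was the 1 activator still called. With slide as a random block no clock gene passed, and the change of Dbp was 1.82, of Tef 1.99 and of Npas2 -1.34.

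**Figure D5:**
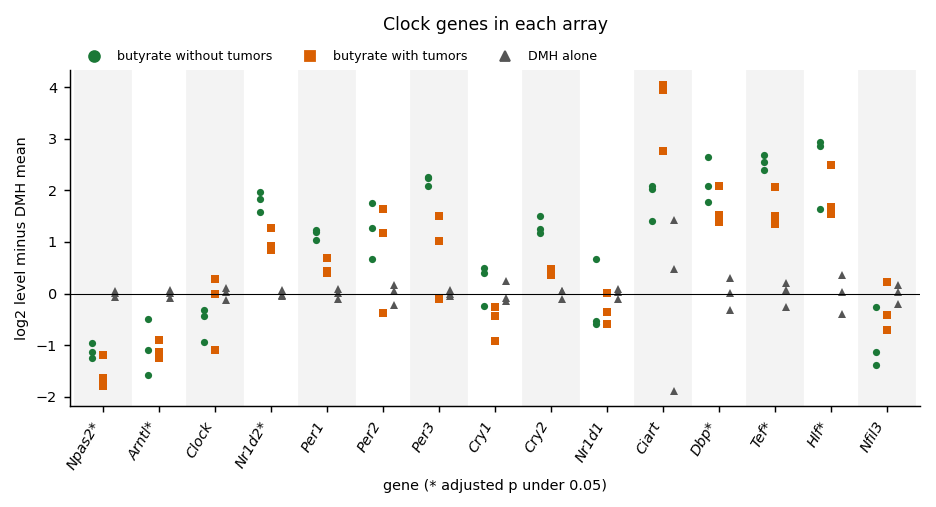
Log2 level of each array minus the DMH mean for 15 clock genes, from activators (Npas2, Arntl, Clock) through repressors to outputs (Dbp, Tef, Hlf, Nfil3), with an asterisk at an adjusted p under 0.05. Npas2 and Arntl lie below all DMH points in all 6 butyrate arrays, Nr1d2, Dbp, Tef and Hlf above them, and the DMH points of Ciart spread over more than 3 units.

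Some genes for making and breaking down protein were lower. Of 66 ribosomal protein genes 12 fell and 1 rose (18.2% lower against 3.35% of all features), with a median change of -0.59, -0.88 without tumors and -0.31 with tumors. That median was -0.29 with quantile scaling and -0.26 after normexp. Rps12 stood at 8.36, 8.17 and 8.17 in DMH and at 5.74, 5.67, 5.69, 6.29, 7.26 and 7.31 with butyrate (-1.90 ± 0.42, adjusted p = 0.0324). Rplp0, of the ribosomal stalk, had -1.95 ± 0.44 (adjusted p = 0.0342) with its brightest probe and -0.60 (adjusted p = 0.0855) with another bright probe. Rpl14 fell by 1.10 ± 0.25 and Rpl21 rose by 1.12 ± 0.22 (adjusted p = 0.0356 and 0.0272), and the dim second probe of Rpl21 had -0.33. Of the bright members that did not pass, Rps16 had -0.48, Rplp2 -0.38 (fitted without array 1 with tumors) and Rps27 -0.83 (adjusted p = 0.128, 0.174 and 0.0822), and the first 2 lay above 0 with quantile scaling and after normexp. Rps12 and Rplp0 were lower without tumors than with tumors (adjusted p = 0.025 and 0.014). Ribosomal protein genes have many processed copies in the genome, which a probe may also read. The list's count was 3, 0 and 0 without arrays 1, 2 and 3 of the mice without tumors and 23 and 25 without arrays 2 and 3 with tumors, and it was 1 lower and 3 higher after normexp. Of 36 translation factor genes 3 fell, Eif5b by 0.95, Eif3i by 0.72 and Eef1g by 0.84, and of 37 mitochondrial ribosome genes 3 fell, Mrpl22 by 0.63, Mrps7 by 0.85 and Mrpl12 by 0.62 (adjusted p from 0.0364 to 0.0452). Of 31 proteasome genes Psma6 and Psmd13 fell, by 0.69 and 1.09. These are 8.33%, 8.11% and 6.45% of the 3 lists, against 3.35% of all features, and their median changes were -0.27, -0.15 and -0.22. Of the 4 other probes of Eif5b 1 had 0.31 and the rest -0.95 to -0.99, and a second probe of Mrps7 had 0.05. Without array 2 or 3 of the mice without tumors none of these last 3 lists held a call, and without array 3 with tumors 8, 4 and 4 of their genes were lower.

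Chaperones and secretory machinery of the endoplasmic reticulum were lower in part. Of 35 genes 6 fell and 0 rose (17.1% lower against 3.35% of all features), while the median change was -0.12. Pdia4, a disulfide isomerase, fell by 1.15 ± 0.25 (adjusted p = 0.0312) and Hspa5, the main chaperone of this compartment, by 0.89 ± 0.21 (adjusted p = 0.0358). Hspa5 stood at 5.15, 5.26 and 5.31 in DMH and ran from 4.01 to 4.77 with butyrate. Dnajc3, a co-chaperone, fell by 1.16 and Calr, a calcium-binding chaperone, by 0.72 (adjusted p = 0.0459 and 0.0436), and Dnajb11 was called as well. The other probes of Dnajc3 disagreed, with -0.13, -0.25 and -1.54. The bright members Hsp90b1, Sec61b and Sec61g had -0.28, -0.12 and 0.43 and did not pass. Xbp1, a transcription factor of secretory cells, fell by 0.70 ± 0.19 (adjusted p = 0.0494). Among 20 genes of B and plasma cells it was 1 of 4 that fell, with Jchain, which joins immunoglobulin units, at -2.25 ± 0.55, Tnfrsf17, the survival receptor of plasma cells, at -1.58 ± 0.38 and Derl3 at -0.85 ± 0.18 (adjusted p = 0.0399, 0.0381 and 0.0317). These were 20.0% of the list, against 3.35% of all features. A second bright probe of Jchain had -1.71 and did not pass. Jchain stood at 5.89, 5.79 and 5.94 in DMH and ran from 2.46 to 5.19 with butyrate. The median of that list was -0.35 without tumors and 1.00 with tumors, and array 1 with tumors stood at 2.43. Its bright members Cd79b, Pou2af1 and Blnk had 0.25, 0.41 and 0.04 and did not pass, and the first 2 had -0.19 and -0.02 without array 1 with tumors. Without arrays 1, 2 and 3 of the mice without tumors and array 1 with tumors, 1, 0, 3 and 3 of the endoplasmic reticulum genes and 2, 0, 0 and 1 of the B and plasma cell genes were called.

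In energy metabolism most calls were in the respiratory chain. Of 61 genes of oxidative phosphorylation 11 fell and 0 rose (18.0% lower against 3.35% of all features), with a median change of -0.38 (-0.18 with quantile scaling and -0.14 after normexp). Cox7b, a subunit of cytochrome oxidase, stood at 6.44, 6.42 and 6.34 in DMH and at 4.99, 4.66, 4.71, 4.66, 5.71 and 5.48 with butyrate (-1.36 ± 0.27, adjusted p = 0.0276). Cox6b1 of the same complex fell by 1.47 ± 0.30, Uqcrq of complex III by 0.97 ± 0.20 and Ndufb2 of complex I by 0.82 ± 0.18 (adjusted p = 0.0296, 0.0288 and 0.0336). The bright members Cox6a1, Cox8a and Cox4i1, also of cytochrome oxidase, had -0.20, 0.08 and -0.03 and did not pass, and all 3 lay above 0 with quantile scaling and after normexp. Without arrays 1, 2 and 3 of the mice without tumors 5, 0 and 1 of these genes were called, and without array 2 with tumors 17. Of 34 genes of fatty acid oxidation Acsl5, which activates long fatty acids, fell by 1.17 ± 0.28 and Acads, the dehydrogenase for short fatty acids such as butyrate, by 1.13 ± 0.28 (adjusted p = 0.0377 and 0.0387), with a list median of 0.10. That median was 0.39 without tumors and -0.37 with tumors, so it was not common to both groups. Acads was lower with tumors than without tumors (adjusted p = 0.0349). Eno1, a glycolytic enzyme, was 1 of 36 genes of glycolysis and the citrate cycle to be called (-1.01 ± 0.24, adjusted p = 0.038), and Tkt, a transketolase, had -1.10 ± 0.19 (adjusted p = 0.0232; 0.21 in a dim second probe). Of 28 genes of sterol and fatty acid synthesis 0 were called.

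Genes through which cells take up, sense and respond to butyrate were mostly uncalled, as were features at large (9.2% called). Of 13 transporters and receptors 1 rose (7.69% higher), Slc16a4, a monocarboxylate transporter family member, which was at least 1.14-fold higher (1.59 ± 0.29, adjusted p = 0.025) and ran from -5.82 to -4.43 with butyrate against -6.84, -6.91 and -6.71. Slc16a4 was well above background on 4 of 6 butyrate arrays and on no DMH array, so that bound is not strict. Slc16a1, the main butyrate carrier of the colon, had 0.12 ± 0.21 (adjusted p = 0.717) and Slc5a8, its sodium-coupled partner, -0.48 ± 0.41 (adjusted p = 0.447). The receptors Ffar2 and Hcar2 had -1.24 ± 0.43 (adjusted p = 0.0914) and -2.02 ± 0.56 (adjusted p = 0.0512). Hcar2 stood at -2.57, -2.68 and -2.67 in DMH, below which all 6 butyrate arrays lay, from -5.78 to -3.10. It was well above background on only 3 of the 6 butyrate arrays. Of 28 histone deacetylases and acetyltransferases 2 rose and 1 fell. Hdac4 stood at 0.00, 0.34 and 0.27 in DMH and at -3.17, -3.93, -2.52, -2.91, -0.60 and -1.64 with butyrate (-2.67 ± 0.62, adjusted p = 0.0366), with array 2 with tumors closest to DMH. Hdac2 had -0.52 (adjusted p = 0.301) and Hdac3 -0.68 (adjusted p = 0.0817), and Hdac1 was not analysed here. Kat2b, an acetyltransferase, rose by 1.09 ± 0.28 (adjusted p = 0.0464) and Sirt1 by 0.76 ± 0.15 (adjusted p = 0.0286), although a dim second probe of Sirt1 had -0.84 and the mean of its probes -0.04. A dimmer second probe of Kat2b had 0.48 and did not pass. Of 27 genes known to respond to deacetylase inhibitors 1 was called, Klf4, a factor of epithelial differentiation (-0.70 ± 0.15, adjusted p = 0.0316). Cdkn1a, the cell cycle inhibitor p21, had -0.15 ± 0.26 (adjusted p = 0.727), with 3.34 to 4.42 in butyrate arrays around 4.15, 3.98 and 3.93 in DMH.

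Few genes of proliferation and the p53 response were called, while the share lower in DNA repair was above that of all features. Over all features 5.85% were higher and 3.35% lower. The shares were 2.63% in each direction for proliferation, 8.33% lower for DNA repair and 2.94% in each direction for the p53 response. Of 38 proliferation genes Bub1, a mitotic checkpoint kinase, rose by 1.43 ± 0.27 (adjusted p = 0.0263; -0.38 in its other probe) and Cdc25c, a mitotic phosphatase, fell by 1.05 ± 0.28 (adjusted p = 0.0494) but had 0.02 after normexp and -0.11 in its other probe. Mki67 had -0.48 (adjusted p = 0.148) and Myc -0.47 (adjusted p = 0.21). Of 36 DNA repair genes 3 fell: Xrcc6, a subunit of Ku, by 1.15 ± 0.27, Nthl1, a base excision glycosylase, by 1.04 ± 0.27, and Alkbh2, which reverses some alkylated bases, by 0.71 ± 0.17 (adjusted p = 0.0369, 0.0449 and 0.0383). Alkbh2 stood at -0.11, -0.16 and -0.21 in DMH and ran from -1.14 to -0.65 with butyrate. Cyp2e1, a cytochrome that activates DMH, had -3.51 ± 1.02 (adjusted p = 0.0594) and was well above background on 1 of 6 butyrate arrays and on all 3 DMH arrays. Mgmt was not analysed here. Of 34 genes of the p53 response Pmaip1, which promotes apoptosis, rose by 0.87 ± 0.20 and Aen, a nuclease, fell by 1.03 ± 0.25 (adjusted p = 0.0362 and 0.0377).

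Matrix metalloproteinases, enzymes that cut collagen and other matrix, were lower where they were called. Of 18 genes 3 fell and 0 rose (16.7% lower against 3.35% of all features), with a median change of -0.51. Mmp13 stood at -0.28, -0.21 and -0.01 in DMH and at -6.38, -4.12, -5.53, -6.52, -2.72 and -1.04 with butyrate (-4.22 ± 1.13, adjusted p = 0.0481). It was well above background on only 3 of 6 butyrate arrays, so the measured fall rests partly on dim signal. Mmp10 stood at 2.60, 2.48 and 2.55 against -3.44, -1.20, -2.20, -2.64, -0.49 and 2.18 (-3.84 ± 1.03, adjusted p = 0.0487). Mmp9, which neutrophils also release, stood at -0.79, -0.73 and -0.61 against -4.24, -4.21, -4.79, -3.61, -3.05 and -1.67 (-2.88 ± 0.59, adjusted p = 0.0288), and a second probe had -2.74. In all 3, array 3 with tumors lay closest to DMH. Of 10 neutrophil genes Mmp9 alone was called. Without arrays 1, 2 and 3 of the mice without tumors and array 1 with tumors, 1, 0, 1 and 1 of the family were called, and without array 3 with tumors 7.

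Called retinoid genes went in both directions, in shares near those of all features. Retinol enters cells through STRA6, is oxidised by alcohol and retinal dehydrogenases and acts as retinoic acid on RAR receptors. Of 24 genes Rarb, the receptor RAR beta, rose by 1.58 ± 0.24 (adjusted p = 0.017), Adh4 rose and Stra6 fell as given above. These calls were 8.33% of the list higher and 4.17% lower, against 5.85% and 3.35% of all features. Rarb stood at -1.71, -1.96 and -2.03 in DMH and at -0.33, -0.37, -0.98, 0.16, -0.24 and -0.14 with butyrate. Without array 2 of the mice without tumors 1 of the genes was higher and 0 lower, and without array 3 with tumors 2 were lower.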

How the data were processed

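Each of the 9 samples was 1 array of 1-colour signal. Per the file headers the deposited scanner files came from Agilent Feature Extraction 10.5.1.1, and the values used are its background-subtracted intensity. The authors' table of 21829 probes, used as an alternative, holds log2 values that equal the log2 signal minus an unknown constant per array. Its medians ran from 2.71 to 3.20. Control and outlier spots were left out, spots of 1 probe averaged, log2 signal centred on each array's 75th percentile, and only probes well above background on 3 or more arrays retained. The probe with the highest mean level stood for a gene. Of 41174 probes 26933 had 1 gene symbol and 14241 none. The DMH files carry another accession for 4725 probes, and names follow the accessions of the butyrate files. P-values of second probes come from a fit over all probes.

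Differences were fitted with limma 3.58.1 (R 4.3.3, lmFit and eBayes, 2-sided) on all 9 arrays with Benjamini-Hochberg adjustment, as 2 groups for butyrate against DMH and as 3 groups for each butyrate group's difference from DMH and from the other, and the script was tested on simulated data. Replicates are the samples the titles number. Named genes were the 15 higher and 15 lower genes with the largest common difference, up to 4 called members of each list by p, bright uncalled members of leading lists, fixed genes, and those called whichever array was left out. Cdx2, Lgals4, Clca1, Agr2, Spdef, Ciart, Ret, Nefl, Npy, Gli3, Id3, Pcare, Dnajb11, Vil1, Cdh17, Cdh1 and Cdx1 were named after their values were seen. The members and lists were chosen with earlier results of these data known. Some genes of the lists are not reported here.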

Additional observations from a re-analysis of the deposited data

Results flagged for a closer look

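In 8 of the 173 named genes 1 of the 6 butyrate arrays lay far from the rest, where chance gives about 1 in 20 groups (Dixon's rule). Array 1 without tumors stood at -3.23 for Zfp979, with the nearest other at -0.93, at 0.22 for Pcsk1, at 2.42 for Mki67 and at 2.48 for Kcnj8. Array 3 without tumors stood at 0.34 for Tac1. Array 2 with tumors stood at 6.79 for Spink4 and at -5.77 for Gria1, and array 1 with tumors at 5.40 for Pou2af1.

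In 24 of the 173 named genes the butyrate groups differed from each other at an adjusted p under 0.05 (limma, between-group term). Their difference from DMH was thus not equal in both groups. Of all 21964 features 2976 (13.5%) differed in this way, so the count among named genes is near that of features at large. As the log2 level without tumors minus that with tumors, values below 0 were -2.98 for Ang2, -2.40 for Srrm3, -2.26 for Stra6, -1.21 for Pinx1, -1.41 for Rplp0, -1.25 for Rps12, -0.78 for Rps27, -1.09 for Lgals4, -0.71 for Nthl1, -1.64 for Mmp9, -1.63 for Dsg3 and -1.85 for Krt6a. Values above 0 were 2.00 for Car1, 1.66 for Klk1, 1.21 for Ffar2, 0.77 for Acads, 0.81 for Kat2b, 0.51 for Pmaip1 and 0.73 for Cdkn1a. Among clock genes the values were 0.90 for Tef, 0.78 for Nr1d2, 0.64 for Per1, 1.39 for Per3 and 0.88 for Cry2, all higher without tumors. Because a label field reverses the tumor status of these samples, the sign depends on the titles. All arrays without tumors were on slide 1, and of those with tumors only array 1 was. These differences are thus in large part also differences between slides, and slide was not in the fit.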

How the results depend on the processing

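The count of 2020 features (1285 higher, 735 lower) stayed within 1.5 times of that total with quantile scaling, normexp, a filter for all 9 arrays, outlier spots kept, the mean of probes, or a trend and robust prior (1746 to 2225). It became 35 (0 higher, 35 lower) without scaling, 1197 (469 higher) with the authors' values, 511 (371 and 140) without the filter on dim probes, 17 (8 and 9) with slide as a random block, 4 (0 and 4) with DMH arrays 2 and 3 averaged, 5052 with 3 groups in the fit, and 1338 (445 lower) when a log2 change of 1 or more was asked for. Without the butyrate arrays of slide 2 it was 7403 (3990 and 3413), and without those of slide 1 the lower count was 1255. Leaving out 1 array gave 7 to 3626 calls, 1 to 2127 higher and 4 to 1499 lower. With the replicate block 585 passed (461 and 124). Correlations of deviations ran from -0.01 to 0.26 for same-numbered arrays and from -0.24 to 0.23 for arrays of different numbers. These values do not settle whether a number marks a pairing, and the main fit used none. The 2976 features that differed between butyrate groups became 1 without scaling, 1442 without the filter and 177 to 7774 when 1 array was left out.

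Directions turned in 18 named genes, and the cause was not tested. Cdc25c had 0.018 after normexp, and with the mean of probes Sirt1 had -0.042, Nr1d1 0.17 and Vamp2 0.22. With quantile scaling and normexp Rps16 had 0.056 and 0.022, Rplp2 0.22 and 0.14, Cox6a1 0.31 and 0.26, Cox4i1 0.48 and 0.45, and Sec61b 0.069 and 0.071. Leaving out 1 array moved Cd79b from -0.19 (without array 1 with tumors) to 0.54 (without array 1 without tumors) and Pou2af1 from -0.022 to 0.60 likewise, while Cox8a ran from -0.024 to 0.19, Cox4i1 from -0.16 to 0.085 and Blnk from -0.017 to 0.084. Without the butyrate arrays of slide 1 Slc16a1 had -0.14, Cox8a -0.34, Sec61g -0.097, Hdac2 0.089, Clock 0.14 and Vamp2 0.17, and without those of slide 2 Cdkn1a had 0.017 and Cox4i1 0.18. Dim probes limit the data: 157 features called higher were not well above background on any DMH array and 26 called lower on no butyrate array.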

Other observations

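Among lists not described above, calls were few and went both ways, where 5.85% of all features were higher and 3.35% lower. Fosb, a subunit of the AP-1 transcription factor, rose by 1.28 ± 0.22 (limma, adjusted p = 0.0228), and Nr4a2, another gene that cells switch on within minutes of a stimulus, fell by 0.97 ± 0.21 (adjusted p = 0.0317). They and Klf4 were the called members of 24 immediate early genes (4.17% higher and 8.33% lower), whose median change was 0.19. Hspa1b, an inducible heat shock protein, fell by 1.36 ± 0.31 (adjusted p = 0.0341) as the 1 call among 20 heat shock genes (5.0% lower). At cell junctions Tjp3, a scaffold of tight junctions, fell by 0.94 ± 0.20 and Jam3, a junctional adhesion molecule, rose by 1.17 ± 0.26 (adjusted p = 0.0317 and 0.0327). Each was 3.85% of its list. Dsg3, a desmoglein, and Krt6a, a keratin, both of squamous epithelium, fell by 2.65 ± 0.59 and 2.33 ± 0.63 (adjusted p = 0.0325 and 0.0494), and Krt6a has a near copy that its probe may read. They were 14.3% of the squamous list. Each was well above background on only 2 of 6 butyrate arrays, so the measured falls rest partly on dim signal.

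Lists of immune cells showed medians away from 0 with few calls. The median change of 10 neutrophil genes was -2.06, with -2.89 without tumors and -0.65 with tumors, and that of 11 mast cell genes was -1.48. Ms4a2, the beta chain of the IgE receptor of mast cells, rose by 1.98 ± 0.52 (adjusted p = 0.0467), against the median of its list. The 27 T and natural killer cell genes had a median of 0.84 and 0 calls. Tnfaip3, an inhibitor of NF-kB, rose by 1.07 ± 0.26 as the 1 call of 39 cytokine and NF-kB genes. Gbp2, an interferon-induced GTPase, rose by 0.92 ± 0.20 as the 1 call of 30 interferon genes (adjusted p = 0.0404 and 0.0318). The shares higher were 2.56% and 3.33% of these lists and 9.09% of the mast cell list, against 5.85% of all features. Slc4a1, the anion exchanger of red cells, rose by 1.01 ± 0.27 (adjusted p = 0.0494), while the median of 4 red cell genes was -0.54.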
